A study of Homo sapiens with 4 samples.

Results

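Type I interferon stimulated genes are the genes that cells switch on when interferon-alpha or interferon-beta binds the cell surface, and 33 of them were followed here in BT-474 cells with and without recombinant Neuropilin-1 (NRP-1). The 33 symbols were listed by name and matched by NCBI Gene ID, with DDX58 matched under its current symbol RIGI. All 33 had reads in at least 1 library, out of 18882 genes with reads. BT-474 is a human luminal B-like breast cancer line with amplified ERBB2. The control cells were wild-type BT-474 (replicates 1 and 2), and the BT-474 NRP-1 cells (replicates 2 and 3) were stably transfected with a pPTuner IRES2 plasmid carrying NRP-1 cDNA, isolated as colonies and kept under Geneticin (G418). Both were cultured in RPMI-1640 with FBS, and the labels name no interferon treatment. Whether the 2 NRP-1 libraries came from 1 clone or more, and whether libraries of a group came from separate cultures, was not given in the sources used here, so p-values measure the spread between these libraries, which may be technical. Cells with the empty plasmid were not analysed here, so NRP-1 cannot be told apart from transfection, colony isolation and drug selection.

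Interferon-alpha and interferon-beta act through the receptor chains IFNAR1 and IFNAR2, whose kinases TYK2 and JAK1 phosphorylate STAT proteins. STAT2 and IRF9 are then part of the complex ISGF3, which binds interferon stimulated response elements in promoters and raises a set of antiviral genes that sense viral RNA, block its translation, degrade it or stop virus entry. Several products of the set, STAT2, IRF9 and IRF7 among them, feed back on the pathway, and tumour cells often keep a low level of these genes without added interferon.

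Each library held between 8243595 and 8448926 estimated reads. Reads were the expected counts of the deposited tables, rounded, and the test throughout was edgeR's quasi-likelihood test with the Benjamini-Hochberg adjustment over all 14298 genes tested, called at an adjusted p under 0.05. As the check of the labels, NRP1 was read 7 and 8 times in control cells against 103 and 62 times in NRP-1 cells, a rise of 3.38 on the log2 scale (SE 0.42, adjusted p = 0.044, edgeR). All 10 luminal markers had over 3 reads in every library. Of 3 basal markers KRT14 had none, KRT5 at most 1 and TP63 12 and 43 in control cells against 40 and 74 in NRP-1 cells. The biological coefficient of variation was 0.0641 between the control libraries and 0.225 between the NRP-1 libraries, so a single pair of NRP-1 libraries set most of the error.

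Promoters of the members were searched for the core of the response element, the feature through which the pathway reaches them. The members were listed as known interferon stimulated genes, so a raised share follows from that choice and is given as a description. The core was written GAAANNGAA and searched on both strands of RefSeq promoters (GRCh38.p14) running from 250 bases before to 50 bases after the start, 300 bases in all, with overlapping matches counted. Of 27 members with a promoter in the table, 19 (70.4%) held it, against 9.86% of 27305 genes and 8.11% of 35116 promoters. At least 2 matches were found in 14 members, against 0.861% of all genes. The interferon-gamma activated element GAS, written TTCNNNGAA, was found in 9 of the 27 members (33.3%), against 9.38% of all genes. IRF7, IFIT2, OAS2, OASL, IFITM2 and USP18 were not in the promoter table. A match describes letters and not a bound site. The 4 promoters below belong to the members with the most reads whose promoter held the core. They are written 5′ to 3′ on the strand of the gene, and capitals mark the core on either strand.
PARP14, chr3:122680589-122680888, plus strand: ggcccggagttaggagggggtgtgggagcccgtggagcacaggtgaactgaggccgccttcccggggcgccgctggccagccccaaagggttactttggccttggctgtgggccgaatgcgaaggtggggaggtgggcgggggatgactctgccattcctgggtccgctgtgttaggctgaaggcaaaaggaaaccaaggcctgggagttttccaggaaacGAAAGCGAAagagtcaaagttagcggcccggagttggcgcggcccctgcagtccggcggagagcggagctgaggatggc
PARP9, chr3:122564251-122564550, minus strand: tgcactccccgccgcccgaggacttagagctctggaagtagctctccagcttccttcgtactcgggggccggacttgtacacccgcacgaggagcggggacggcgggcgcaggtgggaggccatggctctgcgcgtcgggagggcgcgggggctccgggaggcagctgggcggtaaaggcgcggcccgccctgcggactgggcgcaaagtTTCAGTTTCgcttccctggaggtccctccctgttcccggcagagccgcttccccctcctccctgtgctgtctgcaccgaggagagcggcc
OAS3, chr12:112938224-112938523, plus strand: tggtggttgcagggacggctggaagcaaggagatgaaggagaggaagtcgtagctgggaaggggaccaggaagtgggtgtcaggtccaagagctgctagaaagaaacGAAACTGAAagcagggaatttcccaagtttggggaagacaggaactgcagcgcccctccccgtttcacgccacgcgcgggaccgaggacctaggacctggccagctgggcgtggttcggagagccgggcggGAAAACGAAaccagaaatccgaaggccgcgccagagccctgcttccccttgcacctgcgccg
IFIH1, chr2:162318635-162318934, minus strand: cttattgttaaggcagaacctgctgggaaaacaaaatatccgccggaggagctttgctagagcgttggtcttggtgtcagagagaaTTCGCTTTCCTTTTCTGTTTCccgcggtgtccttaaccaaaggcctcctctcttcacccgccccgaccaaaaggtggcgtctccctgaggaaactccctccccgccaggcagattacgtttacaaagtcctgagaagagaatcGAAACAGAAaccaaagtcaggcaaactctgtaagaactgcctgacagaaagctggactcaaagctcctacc
The match began 29 bases before the start in PARP14 and 40 bases before it in PARP9. OAS3 held matches 143 and 12 bases before the start. IFIH1 held 1 match 21 bases before the start and 3 overlapping matches at 164, 158 and 152 bases before it. Promoters with the core and without it were both found among members with many reads: the STAT2 and IRF9 promoters held none.

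In control cells the set was expressed at a low to moderate level. On the FPKM scale, which divides by transcript length, the median control mean over the 33 members was 1.83, against 4.92 over all genes. STAT2 was highest with 23.01 and 22.93 FPKM, above 82.2% of genes, followed by IFITM3 with 15.09 and 15.69 FPKM. IRF9 (10.9 and 7.83), USP18 (8.4 and 10.0) and IFI35 (9.55 and 8.32 FPKM) came next, and these 3 overlapped each other between libraries. PARP14 (6.28 and 6.68 FPKM) followed, then PARP9 (4.96 and 6.16) and IRF7 (4.94 and 6.03 FPKM), which overlapped. In all, 2 members had a control mean over 10 FPKM, 19 lay between 1 and 10, and 12 were under 1. ISG15 lay at the median with 2.02 and 1.64 FPKM, and the lowest were IFITM1 (0 and 0.42), SAMD9 (0.04 and 0.05) and IFI44L (0.02 and 0 FPKM). In NRP-1 cells STAT2 (18.89 and 16.31 FPKM), USP18 (14.42 and 17.35) and IRF9 (19.54 and 11.14) overlapped each other at the top, and all lay above IFITM3 (10.8 and 10.59 FPKM).

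**Figure D1:**
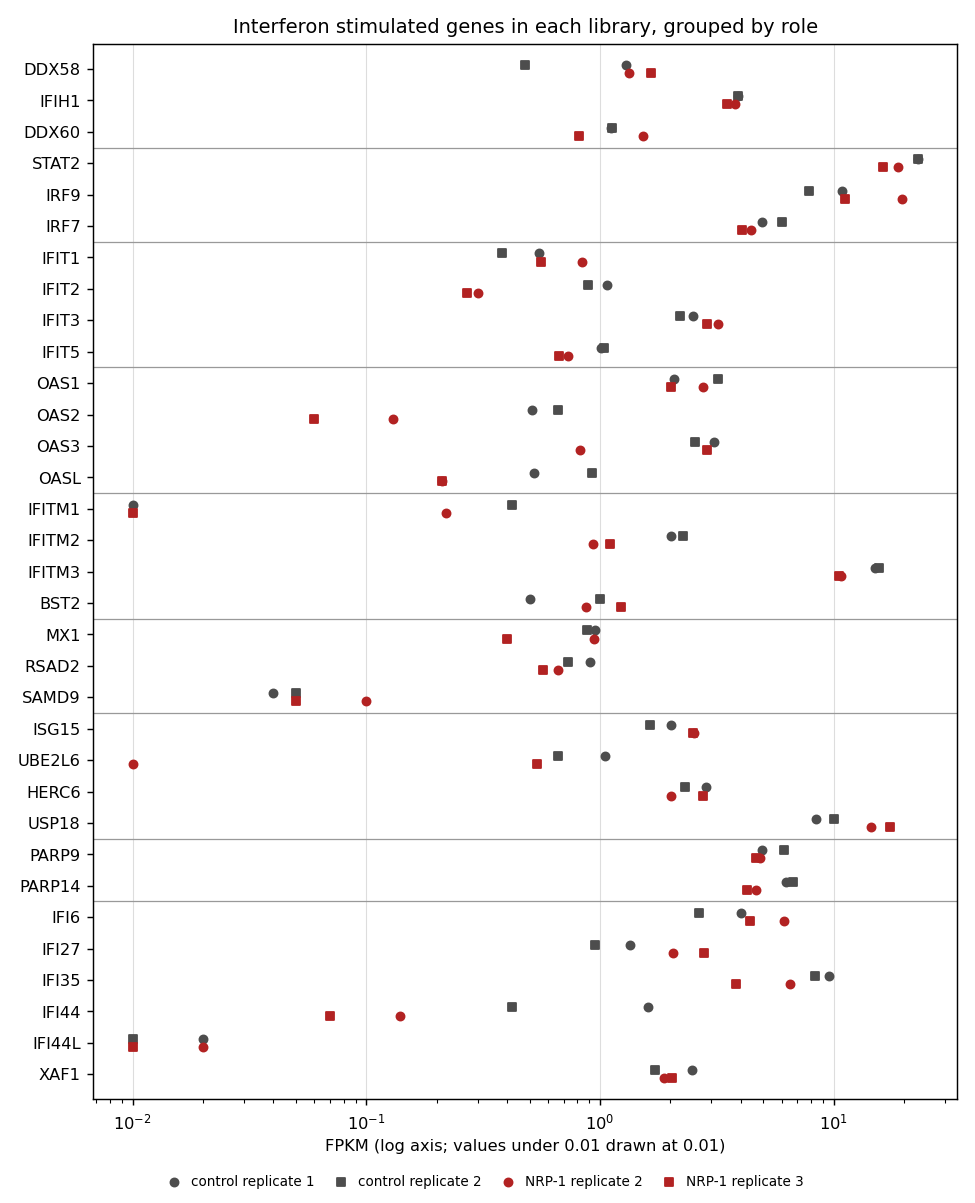
FPKM (log axis) of each of the 33 interferon stimulated genes in each library, grouped by role, with control libraries in grey and NRP-1 libraries in red and circles and squares for the first and second library of a group. STAT2 has the highest control values at 22.93 and 23.01 FPKM, USP18 is higher in both red libraries, and IFIT2 is lower in both.

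No member passed the test between NRP-1 and control cells. Of the 33 members, 26 had enough reads to be tested, and edgeR called 0 higher and 0 lower, where 0.413% of all genes tested were called higher and 0.678% lower. The lowest adjusted p of a member was 0.0801 (IFIT2, edgeR). DESeq2, which called 2.8% of all genes higher and 3.86% lower, also called 0 members, with a lowest adjusted p of 0.0878 (USP18), had 4 members (15.4%, against 17.3% of all genes) at an unadjusted p under 0.05, and gave no adjusted p for OAS2, IFITM2 and IFI27. limma on log2(FPKM + 1) and on log2(FPKM + 0.1) called 0 members too, but only 7 and 3 of 14574 genes in all, with 8 of 28 members (28.6%, against 21.1% and 21% of all genes) at an unadjusted p under 0.05 in each. At an unadjusted p under 0.05, 1 member was higher, USP18 (3.85%, against 10.8% of all genes), and 6 were lower, IFI35, IFIT2, IFITM3, OAS2, PARP14 and STAT2 (23.1%, against 12.1% of all genes). Of these 6, IFIT2 and OAS2 passed the read filter only through the control libraries, which favoured a lower value.

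The members did not lie on 1 side. Fitted differences were positive for 9 and negative for 17 members (65.4% negative, against 48.2% of all genes tested), with a median of -0.15 on the log2 scale, against 0.02 over all genes tested. With any 1 library left out the median lay between -0.43 (without NRP-1 replicate 2) and -0.27 (without control replicate 1), against -0.02 and 0.02 over all genes, on 27 to 29 tested members. Leaving out control replicate 2 gave -0.33, and leaving out NRP-1 replicate 3 gave -0.29. The members added in these fits, from among OASL, UBE2L6 and IFI44, reached the filter only through control libraries, which favoured lower values. The lower medians are therefore not read as a stronger decrease of the set. Both NRP-1 libraries lay above both control libraries for 7 tested members (26.9%, against 27.9% of all genes): DDX58, IFIT1, IFIT3, ISG15, USP18, IFI6 and IFI27. Both lay below for 11 (42.3%, against 28.3% of all genes): IFIH1, STAT2, IRF7, IFIT2, IFIT5, OAS2, IFITM2, IFITM3, RSAD2, PARP14 and IFI35. IFIT2, OAS2 and IFITM2 passed the read filter only through the control libraries, and IFI27 only through the NRP-1 libraries. ISG15 would not have passed it by its control libraries alone, nor MX1 by its NRP-1 libraries alone. The side of these genes was thus favoured by the filter, here and in the counts of positive and negative differences. The other 8 overlapped. The count above depended on the scaling: it was 6 under DESeq2 and 8 with library sizes without TMM, while the count below was 11 in each. For IFIT1, control replicate 1 and NRP-1 replicate 3 were nearly equal (0.55 and 0.56 FPKM). With 1 library left out the count below was 15 to 18, but fewer libraries must agree there. The share over all genes was not taken in those fits, so the rise is not read as a result about the members. Summed over the 33 members, library-scaled counts (CPM) were 353.7 and 342.1 in control cells and 311.3 and 291.2 in NRP-1 cells, and STAT2 alone made up between 25.6% and 31.3% of the members' reads. The summed FPKM, where short transcripts weigh more, overlapped between groups at 120.5 and 116.7 in control cells and 118.3 and 106.1 in NRP-1 cells. In bulk RNA a lower value from fewer expressing cells and one from less RNA per cell cannot be told apart.

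**Figure D2:**
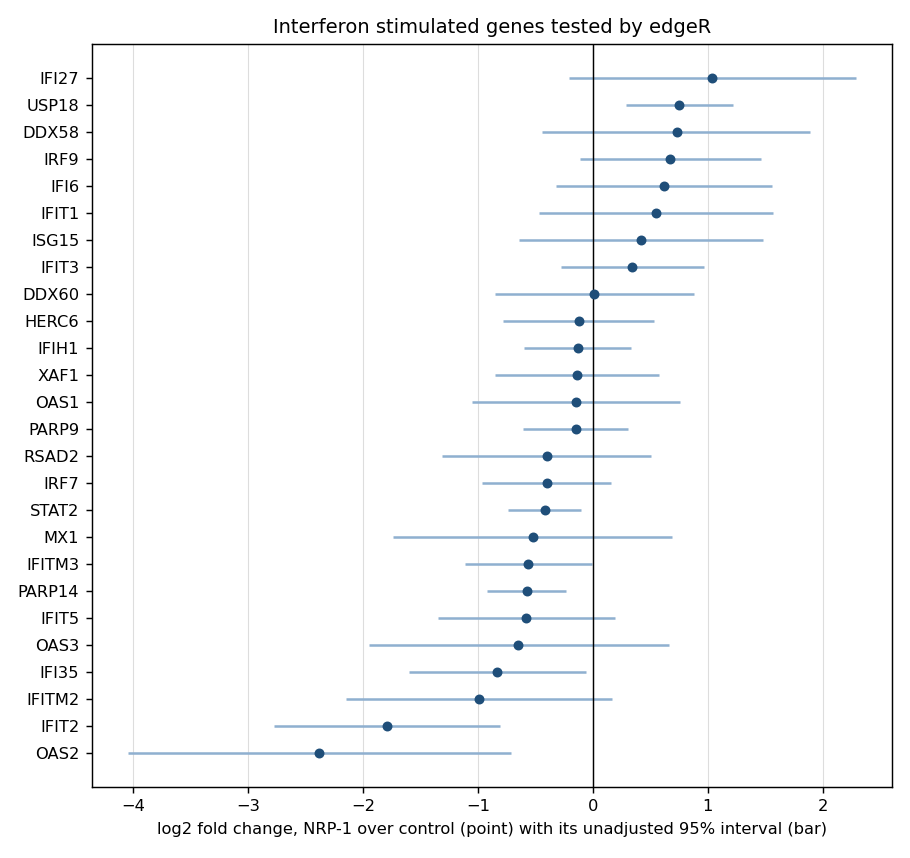
Log2 fold change (NRP-1 over control) of the 26 tested members, with points for edgeR's estimate and bars for its unadjusted 95% interval. The estimates run from -2.38 for OAS2 to 1.04 for IFI27, the interval of USP18 lies above 0, and those of IFIT2, OAS2, PARP14, STAT2, IFI35 and IFITM3 lie below 0, but none passed the adjusted threshold.

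The sensors of viral RNA gave no common direction. DDX58, which encodes RIG-I and detects viral RNA with a free triphosphate end, had 51 and 19 reads (control) against 54 and 67 (NRP-1). Its difference was 0.73 (log2, SE 0.48, 95% interval -0.44 to 1.89, adjusted p = 0.414, edgeR), and the 2 control libraries themselves differed 2.72-fold. IFIH1, which encodes MDA5, the sensor of long double-stranded RNA, had 117 and 118 reads (control) against 115 and 108 (NRP-1). The interval for IFIH1 reached only from -0.60 to 0.33 (log2, adjusted p = 0.717, edgeR). DDX60, a helicase that works with both sensors, had 57 and 58 reads in control cells, which lay between the 79 and 42 reads of the NRP-1 libraries (difference 0.01, SE 0.35, adjusted p = 0.986, edgeR). Without NRP-1 replicate 2 the DDX58 difference was 0.86, and without replicate 3 it was 0.56.

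Among the transcription factors, STAT2 and IRF9, both parts of ISGF3, lay on opposite sides. STAT2 had 875 and 879 reads (control) against 731 and 635 (NRP-1). The control libraries were almost equal and both NRP-1 libraries lay below them, with a difference of -0.42 (log2, SE 0.13, 95% interval -0.74 to -0.10, unadjusted p = 0.0179, adjusted p = 0.138, edgeR). IRF9, the DNA-binding subunit, had 152 and 110 reads (control) against 277 and 159 (NRP-1). NRP-1 replicate 2 stood well above the rest for IRF9, while control replicate 1 and NRP-1 replicate 3 were close in CPM, and the groups overlapped (0.67, SE 0.32, 95% interval -0.11 to 1.46, adjusted p = 0.273, edgeR). IRF7, the factor that amplifies interferon-alpha production, had 81 and 98 reads (control) against 73 and 68 (NRP-1), all control values above all NRP-1 values (-0.40, SE 0.23, 95% interval -0.96 to 0.16, adjusted p = 0.35, edgeR). With 1 NRP-1 library left out, the STAT2 difference was -0.54 without replicate 2 and -0.32 without replicate 3. The IRF9 difference was 1.02 without replicate 3 and 0.21 without replicate 2.

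The IFIT genes, neighbours on chromosome 10 whose products bind viral RNA and block its translation, were split 2 and 2. IFIT2 had 31 and 26 reads (control) against 9 and 8 (NRP-1). Both groups were tight and far apart, and IFIT2 had the lowest adjusted p of all members (-1.79, SE 0.40, 95% interval -2.77 to -0.81, unadjusted p = 0.00429, adjusted p = 0.0801, edgeR). IFIT5 had 34 and 35 reads (control) against 25 and 23 (NRP-1), also without overlap (-0.58, SE 0.31, adjusted p = 0.329, edgeR). IFIT1 had 20 and 14 reads (control) against 31 and 21 (NRP-1) (0.55, SE 0.42, adjusted p = 0.477, edgeR). For IFIT3, the partner that stabilizes IFIT1, 51 and 45 reads stood against 67 and 60 in NRP-1 cells (0.34, SE 0.26, adjusted p = 0.469, edgeR). Whether IFIT2 differed from IFIT1 and IFIT3 in its response was not tested. The sum of the 4 IFIT genes was 136 and 120 reads against 132 and 112, a difference of -0.13 (SE 0.21, adjusted p = 0.75, edgeR), so the sum hid values on both sides. With 1 NRP-1 library left out, the IFIT2 difference was -1.89 without replicate 2 and -1.71 without replicate 3. IFIT2 passed the read filter only through the control libraries, so a lower value was favoured in advance.

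The 2′-5′ oligoadenylate synthetases make the messenger that activates the RNA-degrading enzyme RNase L. OAS3, which has the most reads of them and whose promoter is printed above, had 171 and 143 reads (control) against 46 and 163 (NRP-1). The NRP-1 libraries differed 3.54-fold from each other, NRP-1 replicate 3 lay among the control values, and the interval ran from -1.95 to 0.66 (difference -0.65, SE 0.53, adjusted p = 0.514, edgeR). OAS3 differed from control by -1.83 (log2) when only NRP-1 replicate 2 was kept, and by -0.02 when only NRP-1 replicate 3 was kept. Each of these fits held 1 NRP-1 library, so the spread between the NRP-1 libraries did not enter them. OAS1 had 26 and 41 reads (control) against 36 and 27 (NRP-1), which overlapped (-0.15, SE 0.37, adjusted p = 0.848, edgeR). OAS2 was near the floor of these libraries, at 12 and 14 reads (control) against 4 and 1 (NRP-1) (-2.38, SE 0.68, 95% interval -4.04 to -0.71, adjusted p = 0.119, edgeR). Without NRP-1 replicate 2 the OAS2 difference was -3.61, with 1 read in the remaining NRP-1 library, and without replicate 3 it was -1.73. OAS2 passed the read filter only through the control libraries, so a lower value was favoured in advance. OASL, a relative without synthetase activity that assists RIG-I, had 8 and 15 reads against 3 and 3, too few to be tested. Its ratio of summed reads, NRP-1 over control, was 0.25, with an exact interval of 0.0834 to 0.633 that covers counting error only. OAS1, OAS2 and OAS3 are similar in sequence, and the summed OAS reads were 217 and 213 in control cells against 89 and 194 in NRP-1 cells (-0.66, SE 0.36, adjusted p = 0.325, edgeR).

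The IFITM proteins sit in membranes and hinder virus fusion, and tetherin (BST2) holds budding virus at the cell surface. IFITM3 carried most reads of the group, with 81 and 85 in control cells against 59 and 58 in NRP-1 cells. Replicates differed by a few reads only and the groups did not overlap (-0.56, SE 0.23, 95% interval -1.11 to -0.01, unadjusted p = 0.0468, adjusted p = 0.211, edgeR). IFITM2 had between 12 and 13 reads in control cells and between 6 and 7 in NRP-1 cells (-0.99, SE 0.47, adjusted p = 0.276, edgeR). IFITM1 had at most 2 reads in any library and BST2 between 4 and 10, with overlapping groups, and neither was tested. The 3 IFITM genes are near-identical over parts of their sequence, so the split of reads between them is uncertain. Their sum was 93 and 101 reads (control) against 66 and 65 (NRP-1) (-0.62, SE 0.22, adjusted p = 0.167, edgeR).

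The other antiviral effectors had few reads. MX1, a GTPase that traps viral nucleocapsids, had 22 and 25 reads (control) against 24 and 10 (NRP-1), so NRP-1 replicate 2 was as high as control (-0.52, SE 0.50, adjusted p = 0.574, edgeR). RSAD2, which encodes viperin, had 26 and 21 reads (control) against 20 and 17 (NRP-1) (-0.40, SE 0.37, 95% interval -1.31 to 0.51, adjusted p = 0.562, edgeR). SAMD9 had between 2 and 6 reads and was not tested.

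ISG15 is a ubiquitin-like protein that is attached to other proteins by UBE2L6 and HERC ligases and removed by USP18, which also shuts down signalling at IFNAR2. USP18 was the member with the clearest higher values, at 141 and 169 reads (control) against 246 and 298 (NRP-1). Every NRP-1 library lay above every control library, with a difference of 0.75 (log2, SE 0.19, 95% interval 0.29 to 1.22, unadjusted p = 0.00762, adjusted p = 0.0971, edgeR). ISG15 had only 11 and 9 reads (control) against 14 and 14 (NRP-1) (0.42, SE 0.43, adjusted p = 0.606, edgeR). HERC6 had 92 and 74 reads against 67 and 92 in NRP-1 cells, so the groups overlapped (-0.12, SE 0.27, 95% interval -0.78 to 0.53, adjusted p = 0.823, edgeR). UBE2L6, with 11 and 7 reads against 0 and 7, was not tested. Its ratio of summed reads was 0.373, with a counting interval of 0.132 to 0.937. In the fits with 1 NRP-1 library left out, the USP18 difference was 0.87 without replicate 2 and 0.61 without replicate 3. UBE2L6 reached the filter in those fits only through control replicate 1, so a lower value was favoured in advance. Without NRP-1 replicate 3 the remaining NRP-1 library had 0 reads of UBE2L6.

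PARP9 and PARP14 are ADP-ribosyltransferase family members, close to each other on chromosome 3, with the promoters printed above. PARP14 had 405 and 433 reads (control) against 306 and 281 (NRP-1). The 4 libraries fell into the 2 groups without overlap, 1.49-fold lower in NRP-1 cells on the fitted scale (log2 difference -0.57, SE 0.14, 95% interval -0.92 to -0.23, unadjusted p = 0.00652, adjusted p = 0.0924, edgeR). PARP9 had 153 and 185 reads (control) against 164 and 154 (NRP-1), and the groups overlapped (-0.15, SE 0.19, 95% interval -0.61 to 0.31, adjusted p = 0.684, edgeR). Whether the 2 genes differed from each other was not tested. With 1 NRP-1 library left out, the PARP14 difference was -0.65 without replicate 2 and -0.51 without replicate 3.

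Of the IFI proteins, IFI6, which resides in the endoplasmic reticulum and mitochondria and hinders flavivirus replication, had 27 and 18 reads (control) against 42 and 30 (NRP-1). The groups were next to each other and did not overlap (0.62, SE 0.38, 95% interval -0.32 to 1.56, adjusted p = 0.391, edgeR). IFI27 had 7 and 5 reads against 11 and 15 (1.04, SE 0.51, 95% interval -0.21 to 2.29, adjusted p = 0.285, edgeR). IFI35, a leucine zipper protein that binds NMI, had 98 and 86 reads (control) against 68 and 40 (NRP-1), all NRP-1 values being lower (-0.83, SE 0.31, 95% interval -1.60 to -0.06, unadjusted p = 0.0394, adjusted p = 0.195, edgeR). IFI44 had 23 and 6 reads (control) against 2 and 1 (NRP-1), a ratio of summed reads of 0.0993 with a counting interval of 0.0194 to 0.32, and most of its control reads came from 1 library. IFI44L had at most 1 read in any library. XAF1, a pro-apoptotic protein that antagonizes XIAP, had 69 and 48 reads (control) against 53 and 58 (NRP-1), which overlapped (-0.14, SE 0.29, 95% interval -0.85 to 0.58, adjusted p = 0.817, edgeR). Without NRP-1 replicate 2 the IFI35 difference was -1.27, and without replicate 3 it was -0.49. With 1 NRP-1 library left out, IFI44 reached the filter only through control replicate 1, so a lower value was favoured in advance. Its difference was -3.77 without replicate 2 and -2.84 without replicate 3.

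Calls of members depended on the NRP-1 library left out. With 1 NRP-1 library left out, the spread came from the 2 control libraries alone and the remaining NRP-1 library was assumed to vary like them. Many genes of all kinds then passed: without NRP-1 replicate 2, 18.5% of all genes were called higher and 18.3% lower, against 2 and 6 of 29 members. Without NRP-1 replicate 3, 13.5% of all genes were called higher and 14.7% lower, again against 2 and 6 of 29 members. The 29 included IFIT2, OAS2, OASL, IFITM2, UBE2L6 and IFI44, which reached the filter only through control libraries, so lower values were favoured for them. STAT2, IFIT2, PARP14, IFI44 and USP18 were called in both, in the same direction. The 2 fits share the same 2 control libraries, which alone set the spread, so they are not independent tests. With control replicate 1 or control replicate 2 left out, edgeR called 0 genes of any kind, so its 0 members say nothing of them. There, 3 of 27 members (11.1%, against 5.34% of all genes) and 3 of 28 (10.7%, against 8.03%) had an unadjusted p under 0.05.

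Over the 21 members with a mean of at least 20 reads, the median absolute log2 difference between replicates was 0.25 in control cells and 0.27 in NRP-1 cells. It was 0.13 and 0.26 over all 13136 genes past the same minimum. Those genes were not matched to the members for depth and reach far higher counts, such as a mean of 50729.75 reads for ERBB2. The values therefore do not show that members vary more than genes with like counts. NRP-1 replicate 2 lay above replicate 3 for 16 of these members and below it for 5. Set against the control mean, both NRP-1 libraries were higher for 6 of the 21 members and both lower for 11, while 3 lay on opposite sides (DDX60, OAS1 and HERC6). OAS3 was the remaining member, at -1.73 in replicate 2 and 0 in replicate 3. The shares over all genes were not taken for these counts, so they are not read as a trait of the members. MX1 differed 2.4-fold, DDX60 1.88-fold, IRF9 1.74-fold and IFI35 1.7-fold between the NRP-1 libraries, replicate 2 being higher in each.

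The rest of the pathway was taken from a list of 113 genes, of which 74 were tested. Of 21 interferon genes, 19 had no read in any library, and the only reads were 2 and 1 of IFNL1 (control replicate 1 and NRP-1 replicate 2) and 1 of IFNL3. No read of IFNB1 or of any IFNA gene was listed, so a change in them was not detectable at this depth. The 6 receptor chains were all expressed. IFNAR1 had 506 and 462 reads (control) against 632 and 518 (NRP-1) (0.19, 95% interval -0.19 to 0.57, adjusted p = 0.509, edgeR), and IFNAR2 had 90 and 107 against 99 and 114 (0.05, 95% interval -0.47 to 0.58, adjusted p = 0.908, edgeR). The interferon-gamma chains IFNGR1 (-0.33) and IFNGR2 (0.06), the interferon-lambda chain IFNLR1 (0.11) and the shared chain IL10RB (-0.08) followed with these log2 differences, and only for IFNGR1 did the groups not overlap.

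For both receptor kinases the groups overlapped. JAK1 had 887 and 852 reads (control) against 941 and 736 (NRP-1) (-0.11, 95% interval -0.49 to 0.27, adjusted p = 0.711, edgeR). TYK2 had 913 and 1034 against 1048 and 1175 (0.13, 95% interval -0.19 to 0.45, adjusted p = 0.59, edgeR). Among the other interferon regulatory factors, IRF3, the factor activated by RNA sensing, had 470 and 393 reads against 340 and 491. Log2 differences were -0.11 for IRF3, -0.44 for IRF1, -0.32 for IRF2 and -0.67 for IRF5, with adjusted p between 0.247 and 0.789 (edgeR), and IRF1, IRF2 and IRF5 had no overlap between groups.

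**Figure D3:**
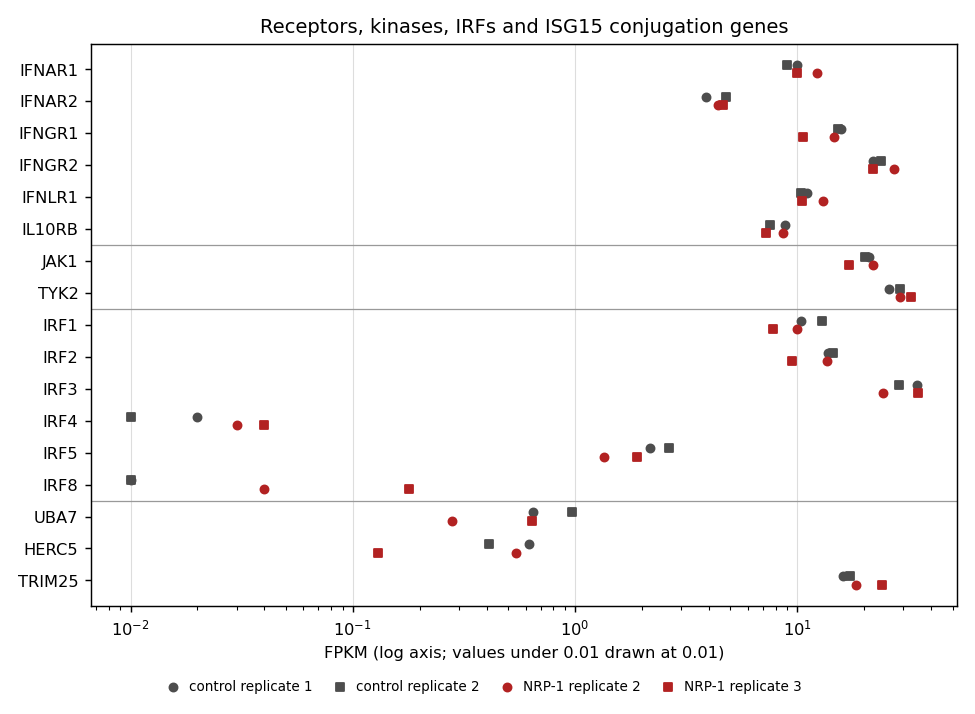
FPKM (log axis) in each library of the interferon receptor chains, the kinases, several other interferon regulatory factors and the ISG15 conjugation genes, in the colours and symbols used for the members. The receptor chains, JAK1 and TYK2 lie between 3.9 and 32.39 FPKM, while IRF4 and IRF8 lie under 1 FPKM in every library.

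Sensors, adaptors, inhibitors and further stimulated genes completed the list. MAVS, the mitochondrial adaptor of RIG-I and MDA5, had 2447 and 2485 reads (control) against 3379 and 3002 (NRP-1) (0.31, SE 0.12, adjusted p = 0.209, edgeR). DHX58, the RIG-I relative LGP2, had 170 and 147 reads against 102 and 55 (-1.07, SE 0.32, adjusted p = 0.128, edgeR). TBK1, the kinase of IRF3, had a log2 difference of 0.11, TICAM1 of -0.47 and MYD88 of 0.47. The inhibitors with the most reads, PTPN11, RNF125, NLRX1, PIAS1 and TRIM21, had log2 differences of 0.13, -0.43, 0.07, -0.03 and -0.04. For ISG15 conjugation they were 0.32 for TRIM25, -0.84 for UBA7 and -0.64 for HERC5.

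Of the 74 tested pathway genes edgeR called 0 in either direction, while DESeq2 called 0 higher and 1 lower. That gene, singled out after its value was seen, was LGALS3BP, a secreted glycoprotein with 947 and 702 reads (control) against 320 and 392 (NRP-1) (-1.27, SE 0.20, adjusted p = 0.0536 with edgeR and 3.3e-05 with DESeq2). At an unadjusted p under 0.05, edgeR found 2 higher (2.7%), EIF2AK2 and MAVS, and 9 lower (12.2%), to be read against 10.8% and 12.1% of all genes. EIF2AK2, the double-stranded RNA kinase PKR, had 260 and 263 reads against 414 and 385 (0.55, SE 0.14, adjusted p = 0.0971, edgeR). Groups did not overlap for 15 higher (20.3%) and 24 lower (32.4%), against 27.9% and 28.3% of all genes. Fitted differences were positive for 32 and negative for 42, with a median of -0.06. The further stimulated genes with the most reads were ADAR, LY6E, SLFN5, ZC3HAV1 and ZNFX1, with log2 differences of -0.06, -0.11, -0.55, 0.24 and -0.01.

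Over all genes outside both lists, the 5 whose standardized log2 CPM over the 4 libraries lay nearest to the mean of the tested members were UNC50, SLC35A3, SMIM29, OCIAD1 and CDYL, each at a Euclidean distance of 1.18. The members' mean itself was 0.35 and 0.08 in control cells and -0.01 and -0.42 in NRP-1 cells, a small slope for standardized values. Averaging members that lie on both sides itself flattens this mean, while a single gene keeps its full standardized spread. A distance of 1.18 is therefore about the smallest the method allows, and its size does not measure likeness.

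Leukocytes also express these genes, and their markers were read in the same libraries. Of 7 leukocyte markers, CD3E and CD14 were among those without reads, and PTPRC had 9 to 17. The summed CPM of the 7 was 99.89 to 113.0 in control cells and 76.55 to 78.91 in NRP-1 cells. LYZ carried most of the sum, with 575 and 521 reads against 522 and 558 (log2 difference -0.08, adjusted p = 0.762, edgeR), and CLEC4C had 7 and 10 against 13 and 8. The lower sum in NRP-1 cells lay mostly in CD68. CD68, which tumour cells can also express, fell by 1.67 on the log2 scale (320 and 281 reads against 107 and 89, adjusted p = 0.0423, edgeR). Of 6 fibroblast and endothelial markers PDGFRB had no reads, and their summed CPM was 220.0 to 220.7 in control cells and 171.1 to 191.3 in NRP-1 cells. Most of that sum was COL1A1, with 1739 and 1740 reads against 1513 and 1357 (-0.34, adjusted p = 0.177, edgeR). Of the endothelial markers, VWF had 9 and 20 reads against 47 and 49 (1.66, adjusted p = 0.0998, edgeR), CDH5 had 1 and 1 against 15 and 3, and PECAM1 had 36 and 53 against 52 and 47. The part of these markers in the members' values was not tested.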

How the data were processed

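RNA of wild-type and NRP-1 overexpressing cells, selected with oligo(dT) and primed with random hexamers, was sequenced in 2 libraries per group. Per the submitters' processing notes bcl2fastq 2.16, Bowtie2 2.2.5, HISAT2 2.0.1 and RSEM were used, with GRCh38 and hg19 both named, so no coordinates are taken from the tables. The strand setting is not given in the sources used here, and reads of overlapping antisense genes cannot be told apart. The authors deposited an expected count per gene and library, not normalized (32.8% of values above 0 not whole), and FPKM, normalized for length and mapped reads. A table of the authors' own comparison (mean FPKM, log2 ratio, probability) was not used. Genes without a row were set to 0. Gene IDs were named from RefSeq genes of GRCh38.p14 (99.4% of 18882 matched).

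Expected counts were rounded and fitted in R 4.3.3 by the quasi-likelihood functions glmQLFit and glmQLFTest of edgeR 4.0.16, after TMM scaling and the filterByExpr filter, with group as the sole factor. TMM factors lay between 0.9861 and 1.014. Alternatives were DESeq2 1.42.0, library sizes without TMM, no filter, limma 3.58.1 (pseudocount 1 or 0.1) on log2 FPKM where the mean was 0.5 FPKM or more, summed paralogs and each library left out. The scripts were tested on simulated data. Members with a mean of at least 20 reads were named with each library's reads, the others by reads or range, and pathway genes where they were ligands, receptors, JAK1 or TYK2 or among the 5 with most reads of their role. Some genes of the lists are counted but not reported here by name. Ratios of summed reads have exact 95% intervals for counting error. The members and lists were chosen with earlier results of these data known. No exact permutation test of 2 against 2 libraries can go below p = 0.33.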

Additional observations from a re-analysis of the deposited data

How the results depend on the processing

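The 26 tested members kept direction and side of the threshold in 131 of 134 fits under DESeq2, library sizes without TMM, no filter, limma or summed families. These leave out OAS2, IFITM2 and IFI27 under DESeq2, which gave them no adjusted p. They also leave out OAS2 under limma with either pseudocount, where its mean was under 0.5 FPKM. The exceptions were DDX60 with limma on log2(FPKM + 0.1) (-0.01) and IFIT1 and IFIT3 as the summed IFIT family (-0.13). With 1 library left out, 85 of 104 were alike, 13 passed the threshold and 6 turned direction. The latter concerned DDX60 (-0.52 to 0.40), OAS1 (-0.43 to 0.21), HERC6 (-0.37 to 0.08) and XAF1 (-0.38 to 0.16).

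With 1 library left out, members called higher ranged from 0 to 2 and lower from 0 to 6, pathway genes called higher from 0 to 7 and lower from 0 to 18. The high counts came without an NRP-1 library, when 5414 (without replicate 2) or 4159 genes (without replicate 3) were called, because only the 2 control libraries gave the spread. Without control replicate 1 or 2, 0 genes were called, and 782 and 1181 had an unadjusted p under 0.05. The 156 genes called by edgeR stood beside 953 with DESeq2, 154 without TMM, 7 and 3 with limma (+ 1 and + 0.1) and 0 without the filter (3297 at an unadjusted p under 0.05), the causes not being tested. DESeq2 called 1 pathway gene lower. Members lower in every NRP-1 library than in every control library ranged from 15 to 18 and the median from -0.43 to -0.27 with 1 library left out. More members pass the filter there, the added ones only through control libraries, and fewer libraries must agree. The share of all genes lower in every NRP-1 library was not taken in those fits. No paired analysis was possible because the groups share only replicate number 2. At this depth 7 members were too low to be tested.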
